A study of Homo sapiens with 18 samples.

Results

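In T47D cells, 1287 of 132604 accessible regions were less accessible after R5020 at both of its doses and at both times studied. T47D is an established human breast carcinoma line, and R5020 (promegestone) is a synthetic progestin that activates the progesterone receptor. The regions were chosen from the deposited read counts of all 18 libraries, put on a log2 CPM scale (CPM is a region's count divided by the library total after TMM scaling, and a prior count of 2 was added before the log) and averaged per group. A region was kept where 10 nM minus vehicle was -1 or less and 0.1 nM minus vehicle was -0.7 or less, at 18 h and also at 6 h. The thresholds of both doses were met by 3178 regions at 18 h and by 2410 at 6 h, and the 1287 are the regions common to these lists. All differences between a dose and vehicle among the 1287 regions were therefore fixed by the choice, and they are given as a description.

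The assay was Omni-ATAC-seq, in which Tn5 transposase inserts adapters wherever DNA is exposed, so that more reads come from more open regions. The groups were vehicle (DMSO), 0.1 nM R5020 and 10 nM R5020, each for 18 h and for 6 h, and every one of these 6 groups had 3 libraries. Cells of every group, vehicle included, had first been kept in hormone-stripped medium and starved of serum for synchronization. The labels do not tell if the libraries of a group are separate cultures, so the p-values below reflect the spread from library to library, part of which may be technical. The table holds regions and not transcripts, so the labelled cell line could not be checked against marker expression.

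The progesterone receptor is a nuclear hormone receptor that sits inactive with chaperones until a progestin binds it. The bound receptor then binds DNA at hormone response elements or through other factors, and recruits coregulators that open or close the chromatin around it. In breast epithelium it is known for driving differentiation and growth programmes and for modulating sites used by the estrogen receptor. An accessible region is a short stretch of DNA with few nucleosomes, usually a promoter or an enhancer, and its loss of accessibility is commonly read as nucleosomes returning over it. In a bulk assay, full closure in some of the cells and partial closure in all of them cannot be told apart.

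Library totals ran from 8756311 to 39984217 counts in regions, both extremes being 18 h libraries of 10 nM. The counts of replicate pairs differed by more than counting noise (chi-square over its degrees of freedom, 3.34 to 28.2), so none was a repeat deposit of another. The library least like the others of its group was 10 nM at 18 h replicate 1, whose log2 CPM over all regions had a mean correlation of 0.844 with theirs. Counts were on average less concentrated with 10 nM than with vehicle. The 5000 strongest regions held 33.7% ± 3.23 of them against 38.21% ± 1.93 at 18 h and 34.07% ± 0.57 against 39.15% ± 2.32 at 6 h (SD, n = 3 each). At 18 h the libraries overlapped, with 37.25% in 10 nM replicate 1 and 36.15% in vehicle replicate 3. In each 18 h group the share was higher in libraries with more counts, which was not so for 10 nM or vehicle at 6 h. The part of library size was not tested. The part of this shift in concentration in the results below was not tested, beyond a fit with that share as a covariate, whose counts for the doses stand beside those results and for the times in the closing section.

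The median level of the 1287 regions was above that of all regions in vehicle cells, lower at 0.1 nM and lower again at 10 nM. At 18 h their median level was 2.08, 1.82 and 1.74 log2 CPM in the vehicle libraries, 0.74, 0.57 and 0.69 log2 CPM at 0.1 nM, and -0.24, -0.15 and 0.15 log2 CPM at 10 nM. At 6 h it was 2.35, 2.05 and 1.78 log2 CPM with vehicle, 1.07, 0.83 and 1.10 log2 CPM at 0.1 nM, and 0.18, 0.19 and 0.12 log2 CPM at 10 nM. At each time every 0.1 nM library lay below every vehicle library and above every 10 nM library. The median of all regions stayed between 1.03 and 1.42 log2 CPM over the 18 libraries. Within the vehicle groups the library with the highest level over the 1287 regions, replicate 1 at both times, also had the most concentrated counts, with 39.98% in the 5000 strongest regions at 18 h and 41.67% at 6 h.

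**Figure D1:**
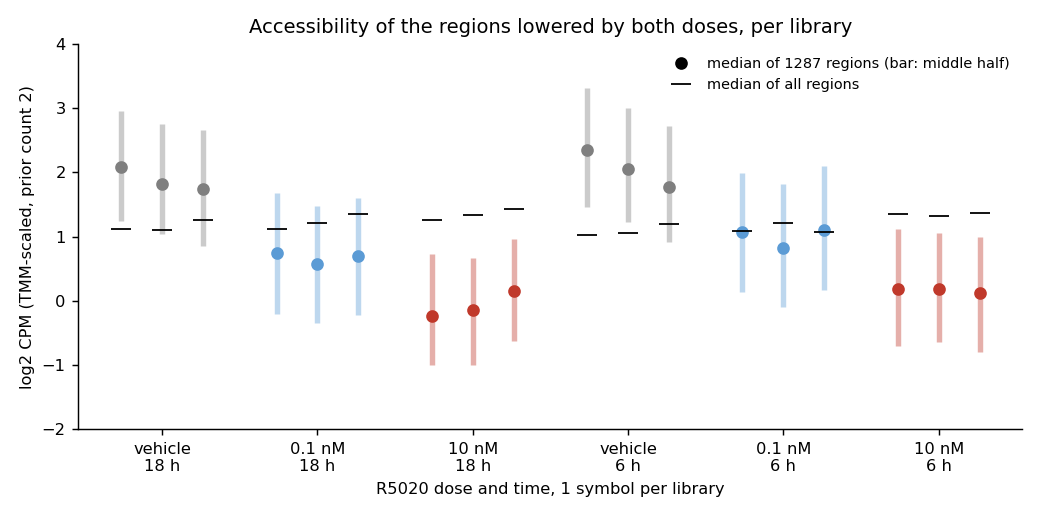
Median log2 CPM of the 1287 regions in each library (circles, with a bar over the interquartile range) and of all 132604 regions (dashes), by R5020 dose and time, 3 libraries per group. The circles step down with dose at both times without overlap, while the dashes stay between 1.03 and 1.42.

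The share of all counts that fell in these regions, and their rank, restate the loss, as both come from the counts that chose them. At 18 h the 1287 regions took 0.717% ± 0.0336 of the counts with vehicle, 0.317% ± 0.0253 at 0.1 nM and 0.184% ± 0.0365 at 10 nM (SD, n = 3 each). At 6 h the shares were 0.804% ± 0.101 with vehicle, 0.394% ± 0.0235 at 0.1 nM and 0.215% ± 0.00863 at 10 nM. All regions were ranked by group mean log2 CPM (prior count of 2) minus log2 width, which lifts narrow regions with few counts. The median of the 1287 stood at percentile 60.0 with vehicle, 14.2 at 0.1 nM and 2.00 at 10 nM at 18 h. At 6 h the percentiles were 65.5 with vehicle, 33.5 at 0.1 nM and 5.02 at 10 nM. The median rank thus went from above the middle of the list with vehicle to near its low end at 10 nM. With vehicle, 825 of the 1287 ranked above the middle of the list at 18 h and 1012 at 6 h. At 18 h, 1079 of the 1287 lay in the lowest 10% of this ranking at 10 nM, 506 at 0.1 nM and 8 with vehicle.

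As chosen, the median region kept 25.5% of its vehicle level at 10 nM and 43.8% at 0.1 nM after 18 h, and 27.8% at 10 nM and 48.8% at 0.1 nM after 6 h, on the log2 CPM scale with a prior count of 2. The differences reached down to -4.44 for 10 nM at 18 h and -4.49 at 6 h, and to -3.91 for 0.1 nM at 18 h and -2.65 at 6 h. Across all regions the medians were -0.03 for 10 nM at 18 h and 0.03 at 6 h. Members nearest the thresholds, with an average level of at least 1 log2 CPM, were chromosome 6 from 53378346 to 53378732, at -0.70 for 0.1 nM at 6 h, chromosome 3 from 43336514 to 43336970, also at -0.70 there, and chromosome 1 from 191122047 to 191123063, at -1.001 for 10 nM at 6 h. Just outside lay chromosome 3 from 9191229 to 9191651, a fraction above -0.7 for 0.1 nM at 6 h, chromosome 8 from 79512827 to 79513593 and chromosome 13 from 94830784 to 94831442, both at -0.698 for 0.1 nM at 18 h. Regions on either side of the line thus hardly differ in the contrast that decided them, for which they were picked. They can differ in other contrasts. For 0.1 nM at 6 h the difference was -2.59 in the chromosome 1 region and -0.828 in the chromosome 8 region.

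A region was called where edgeR's quasi-likelihood test gave a Benjamini-Hochberg adjusted p under 0.05 over the 132304 regions tested, which include 1285 of the 1287. Because the choice used these contrasts, the counts describe how firmly single regions were measured and are no evidence of a loss. At 10 nM, 1177 of the 1287 were called lower at 18 h, where 7.56% of all tested regions were called lower, and 1226 at 6 h, where 8.42% were. At 0.1 nM, 480 were called lower at 18 h against 0.698% of all tested regions, and 255 at 6 h against 0.241%. The 255 made up 79.9% of the 319 regions called lower by 0.1 nM at 6 h, and the 480 made up 52.0% of the 923 at 18 h. All 4 comparisons called 213 of the 1287 and 7 other regions, 0.166% of those tested. None of the 1287 was called higher in any of them. In the fit with the concentration of counts as covariate, 1086 were called lower with 10 nM at 18 h and 1011 at 6 h, and 670 with 0.1 nM at 18 h and 534 at 6 h. Over all tested regions that fit called 15128 and 15967 lower with 10 nM, beside 10002 and 11143 without the covariate. With 0.1 nM it called 1692 and 1075, beside 923 and 319. For 10 nM the count among the 1287 thus fell while that over all regions rose. A replicate block brought the 0.1 nM count to 674 at 18 h and to 494 at 6 h, and that over all tested regions to 1732 and 747.

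The 0.1 nM counts changed when single libraries were left out, which also leaves fewer libraries to test. These 2 effects were not told apart. At 18 h the 480 became 208 without vehicle replicate 1, 286 without vehicle replicate 2 and 401 without vehicle replicate 3. Without 0.1 nM replicate 1, 2 or 3 they became 298, 236 and 337. Over all tested regions the 923 became 335 to 682. At 6 h the 255 became 57 without vehicle replicate 1 and 84 without vehicle replicate 2. Without 0.1 nM replicate 1, 2 or 3 they became 74, 113 and 123, and without vehicle replicate 3 they became 341. Over all tested regions the 319 at 6 h became 70 to 464.

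By CPM alone, all 3 libraries of the dose lay below all 3 of vehicle in 1239 of the 1287 regions for 10 nM at 18 h, against 13.4% of all regions, and in 1258 at 6 h, against 18.4%. For 0.1 nM this held in 1091 regions at 18 h, against 7.11% of all regions, and in 1065 at 6 h, against 6.20%. It held in all 4 comparisons for 904 of the 1287, against 1.47% of all regions. The median SD between libraries of a group was 0.524 log2 CPM in the 1287 against 0.460 over all regions at 10 nM and 18 h, and 0.325 against 0.238 at 10 nM and 6 h. At 0.1 nM it was 0.4165 against 0.427 at 18 h and 0.324 against 0.327 at 6 h, and with vehicle 0.309 against 0.307 at 18 h and 0.383 against 0.376 at 6 h.

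The largest losses left almost no signal at 10 nM. The deepest falls were picked by the mean of the 4 differences, from members whose dose and vehicle libraries did not overlap in any comparison. Their size and their separation from vehicle were thus set by the pick. The region with the lowest mean of the 4 differences lies on chromosome 5 from 117345299 to 117346389 and is 1090 bp wide. At 18 h it had 26.1, 19.8 and 21.5 CPM with vehicle, 3.41, 2.77 and 3.51 CPM at 0.1 nM, and 1.18, 0.646 and 1.39 CPM at 10 nM. At 6 h it had 38.0, 27.2 and 28.8 CPM with vehicle, 7.34, 8.58 and 11.6 CPM at 0.1 nM, and 1.14, 1.27 and 1.47 CPM at 10 nM. The 3 dose groups did not overlap at either time. In the fit it was 20.9-fold lower with 10 nM than with vehicle at 18 h (log2 fold change -4.38, SE 0.27) and 24.7-fold lower at 6 h (-4.63, SE 0.26). With 0.1 nM it was 7.02-fold lower at 18 h and 3.46-fold lower at 6 h.

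Another of the strongest lies within the same part of chromosome 5, from 117474811 to 117475813, with no other region of the list within 50 kb. It had 8.20, 6.52 and 8.08 CPM with vehicle at 18 h, 1.06, 0.831 and 1.80 CPM at 0.1 nM, and 0.456, 0.566 and 0.739 CPM at 10 nM, with no overlap between the groups. A region of chromosome 20 (18580033 to 18580724) had 13.6, 7.14 and 6.84 CPM with vehicle at 18 h, 1.28, 1.04 and 2.75 CPM at 0.1 nM, and 0.161, 0.0808 and 1.39 CPM at 10 nM. Its 10 nM library of replicate 3 overlapped the 0.1 nM libraries, and the other two 10 nM libraries were near 0. Chromosome 13 gave 3 of the 10 strongest, from 54758464 to 54759472, from 56227432 to 56227914 and from 57102240 to 57103191. Over the 10 regions the fall ranged from 9.32-fold to 21.6-fold with 10 nM at 18 h and from 8.81-fold to 24.7-fold at 6 h. With 0.1 nM it ranged from 3.05-fold to 7.18-fold at 18 h and from 2.62-fold to 3.81-fold at 6 h.

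**Figure D2:**
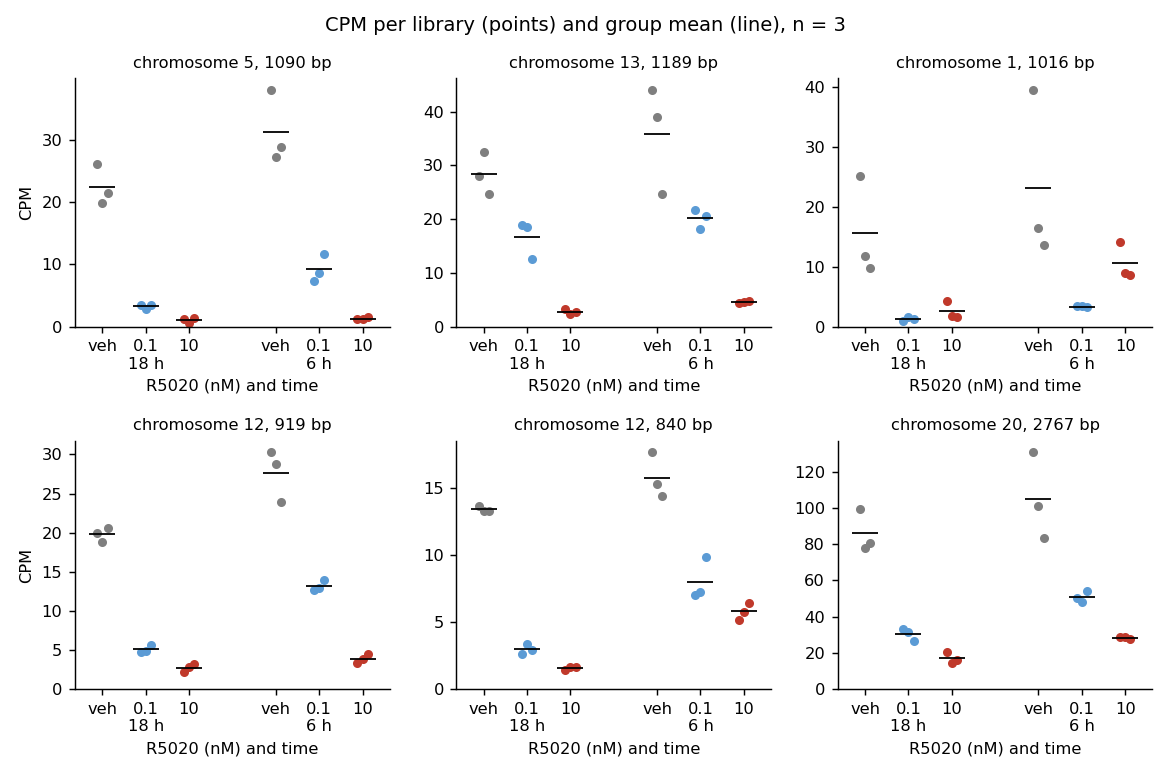
CPM per library (points) and group mean (lines, n = 3) in 6 of the regions by R5020 dose and time, each panel with its own linear axis from 0. From left to right, the top row shows the largest fall (chromosome 5), one of the largest differences between doses (chromosome 13) and a region lower at 0.1 nM than at 10 nM (chromosome 1), and the bottom row shows both regions called lower at 18 h than at 6 h with 0.1 nM (chromosome 12) and the region with the most vehicle counts, also the widest (chromosome 20).

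The region with the most vehicle counts of the 1287, in CPM and not per length, was also the widest, 2767 bp on chromosome 20 from 52480655 to 52483422. At 18 h it had 99.4, 77.8 and 80.8 CPM with vehicle, 33.1, 31.8 and 26.4 CPM at 0.1 nM, and 20.3, 14.5 and 16.2 CPM at 10 nM. Its 6 h values were 131, 101 and 83.2 CPM with vehicle, 50.5, 48.3 and 54.2 CPM at 0.1 nM, and 28.6, 28.6 and 27.6 CPM at 10 nM. Its dose groups did not overlap at either time. Per kb, the highest vehicle level of the 1287 was 62.4 CPM per kb, on chromosome 7 from 27386330 to 27387124. That region had 52.7, 53.6 and 34.2 CPM with vehicle at 18 h, 18.8, 17.7 and 8.55 CPM at 0.1 nM, and 14.8, 12.1 and 6.84 CPM at 10 nM, and its 10 nM and 0.1 nM libraries overlapped, all below vehicle. On the same chromosome, the region from 108456099 to 108457047 had 46.2, 47.6 and 47 CPM with vehicle at 18 h, 27.3, 22.6 and 24.4 CPM at 0.1 nM, and 6.28, 5.49 and 6.93 CPM at 10 nM, with no overlap between the groups. The narrowest with an average level of at least 1 log2 CPM, 228 bp on chromosome 4 from 37472803 to 37473031, had 3.43, 3.55 and 3.07 CPM with vehicle at 18 h, 2.09, 3.33 and 0.95 CPM at 0.1 nM, and 0.805, 0.889 and 0.647 CPM at 10 nM. Its 0.1 nM replicate 2 lay within the vehicle range.

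The step between the doses was compared directly. This contrast is not one of the rule's, but the levels behind it are, and the rule asked for a deeper fall at 10 nM than at 0.1 nM, so its direction over the 1287 regions was partly set by the choice. With 10 nM, 326 were called lower than with 0.1 nM at 18 h, where 4.22% of all tested regions were called lower, and 497 at 6 h, where 5.25% were. None was called higher at 18 h, where 6.67% of all tested regions were, and 1 at 6 h, where 15.1% were. By CPM alone, all 3 libraries of 10 nM lay below all 3 of 0.1 nM in 538 of the 1287 at 18 h, against 8.98% of all regions, and in 763 at 6 h, against 16.8%. At an unadjusted p under 0.05 the dose contrast passed, in either direction, in 592 of the 1287 at 18 h and in 703 at 6 h, beside 28971 and 40160 of all 132304 tested regions. With the covariate 333 were called lower at 18 h and 420 at 6 h, beside 9417 and 11607 of all tested regions. Without the covariate, 5586 and 6947 of all tested regions were. The count of 326 at 18 h became 185 without 0.1 nM replicate 1, where 2953 of all tested regions were called lower. The median log2 fold change of 10 nM against 0.1 nM was -0.81 at 18 h and -0.88 at 6 h, beside -0.01 and -0.06 over all tested regions.

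The 0.1 nM fall was set beside the 10 nM fall on the log2 scale, in regions that the rule had chosen on both. The 0.1 nM difference was 61.1% of the 10 nM difference in the median region at 18 h and 56.8% at 6 h, with interquartile ranges of 49.25% to 74.75% and 45.9% to 70.55%. Both differences share the vehicle libraries, and the thresholds set a floor under the smaller one. In regions chosen at 6 h alone, the median 0.1 nM difference at 18 h was 52% of the median 10 nM difference. In those chosen at 18 h alone and measured at 6 h, it was 53.4%. In 94 regions at 18 h and 66 at 6 h the level at 0.1 nM was as low as at 10 nM or lower. Averaged over both times, 10 nM was below 0.1 nM by 1.5 or more in 108 regions and above it in 44, on the log2 CPM scale. The 108 had a median vehicle level of 13.1 CPM per kb and a median width of 735 bp, and the 44 had 5.43 CPM per kb and 453.5 bp. The wide steps thus rest on more counts. The prior count of 2 also shrinks steps at low levels, so step and level were not independent.

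Among the widest steps was the region on chromosome 13 from 91490757 to 91491946. The 18 h libraries had 28.0, 32.5 and 24.6 CPM with vehicle, 18.9, 18.6 and 12.6 CPM at 0.1 nM, and 3.33, 2.26 and 2.68 CPM at 10 nM. Its 6 h values were 44.1, 39.1 and 24.6 CPM with vehicle, 21.7, 18.2 and 20.6 CPM at 0.1 nM, and 4.45, 4.53 and 4.81 CPM at 10 nM. The 3 dose groups did not overlap at either time. With 10 nM it was 5.96-fold lower than with 0.1 nM at 18 h (log2 fold change -2.57, SE 0.242, edgeR adjusted p = 2.66e-06) and 4.46-fold lower at 6 h (-2.16, SE 0.228, adjusted p = 1.61e-06). The widest step averaged over the times, among regions with an average level of at least 1 log2 CPM, was on chromosome 9 from 12904168 to 12905533, with 4.96, 1.37 and 2.77 CPM at 10 nM and 18 h, against 17.6, 10.5 and 12.3 CPM at 0.1 nM. A chromosome X region (78213767 to 78214490) showed a 3.77-fold step between 10 nM and 0.1 nM at 18 h and a 10.5-fold step at 6 h, the widest of those named at that time.

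The region on chromosome 1 from 191122047 to 191123063 went the other way. Its 18 h values were 25.2, 11.8 and 9.85 CPM with vehicle, 0.916, 1.52 and 1.33 CPM at 0.1 nM, and 4.24, 1.70 and 1.66 CPM at 10 nM. At 6 h it had 39.5, 16.4 and 13.6 CPM with vehicle, 3.36, 3.36 and 3.33 CPM at 0.1 nM, and 14.1, 8.89 and 8.63 CPM at 10 nM. At 6 h the 10 nM libraries all lay above the 0.1 nM libraries, and the highest of them lay within the vehicle range. This was the 1 region of the 1287 called higher with 10 nM than with 0.1 nM at 6 h (log2 fold change 1.62, SE 0.416, edgeR adjusted p = 0.00754). At 18 h the difference was 1.15 (SE 0.496, adjusted p = 0.166). Replicate 1 was the highest library with vehicle and with 10 nM at both times.

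A similar order held on chromosome 14 from 37747878 to 37748632, where no dose difference was called. It had 15.4, 12.4 and 8.67 CPM with vehicle at 18 h, 1.47, 1.04 and 0.19 CPM at 0.1 nM, and 2.20, 0.889 and 1.57 CPM at 10 nM. The 6 h values were 23.1, 14.3 and 12.3 CPM with vehicle, 5.34, 3.18 and 3.44 CPM at 0.1 nM, and 9.27, 7.48 and 6.83 CPM at 10 nM. The 10 nM libraries overlapped the 0.1 nM libraries at 18 h and lay above them at 6 h. Another 3 regions stood at this end of the dose difference, and none of them was called between the doses at either time. A region of chromosome 10 (90234090 to 90234890) had 40.8, 31.2 and 29.5 CPM with vehicle at 18 h, 16.3, 12.5 and 8.07 CPM at 0.1 nM, and 27.6, 12.4 and 11.7 CPM at 10 nM, where replicate 1 was the highest 10 nM library; the log2 fold change of 10 nM against 0.1 nM was 0.49 (SE 0.28, edgeR adjusted p = 0.341). The others were on chromosome 13 (100426759 to 100427387) and chromosome 9 (35935304 to 35936484). The chromosome 13 region had a log2 fold change of 10 nM against 0.1 nM of 0.54 (SE 0.436) at 18 h and 0.007 (SE 0.42) at 6 h. On chromosome 9 it was 0.155 (SE 0.38) at 18 h and 0.246 (SE 0.343) at 6 h.

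Regions with the 10 nM fall at both times that missed the 0.1 nM threshold at 6 h, at 18 h or at both give the nearest comparison. A fall of 1 or more at 10 nM at both times was seen in 4315 regions, of which 3028 are not among the 1287. In these 3028 the median level left at 10 nM was 36.4% of vehicle at 18 h and 37.8% at 6 h, and at 0.1 nM it was 72.3% at 18 h and 74.1% at 6 h. With 0.1 nM, 132 of the 3027 that were tested were called lower at 18 h and 23 at 6 h, beside 0.698% and 0.241% of all tested regions. With 10 nM against 0.1 nM, 1552 were called lower at 18 h and 1950 at 6 h, beside 4.22% and 5.25%. As both lists were cut from the same differences, this contrast describes the rule. At 10 nM and 18 h the median difference from vehicle was -1.97 in the 1287 and -1.46 in the 3028.

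The libraries of one time give a measure that the choice at the other time did not use. Of the 2410 regions that met the thresholds at 6 h alone, 53.4% also met them at 18 h, compared with 2.40% of all regions. Their median difference at 18 h was -1.54 for 10 nM and -0.80 for 0.1 nM, beside -0.03 and -0.01 over all regions, and edgeR called 1581 of the 2401 tested lower with 10 nM (65.8%, beside 7.56% of all tested regions) and 484 with 0.1 nM (20.2%, beside 0.698%). The share below 0 was 96.0% for 10 nM and 91.2% for 0.1 nM. In single libraries the median log2 ratio of these regions to the mean of the vehicle libraries at 18 h was -1.68, -1.57 and -1.30 at 10 nM, -0.78, -0.88 and -0.77 at 0.1 nM, and 0.14, -0.03 and -0.10 in the vehicle libraries themselves. Every dosed library thus stood below every vehicle library.

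**Figure D3:**
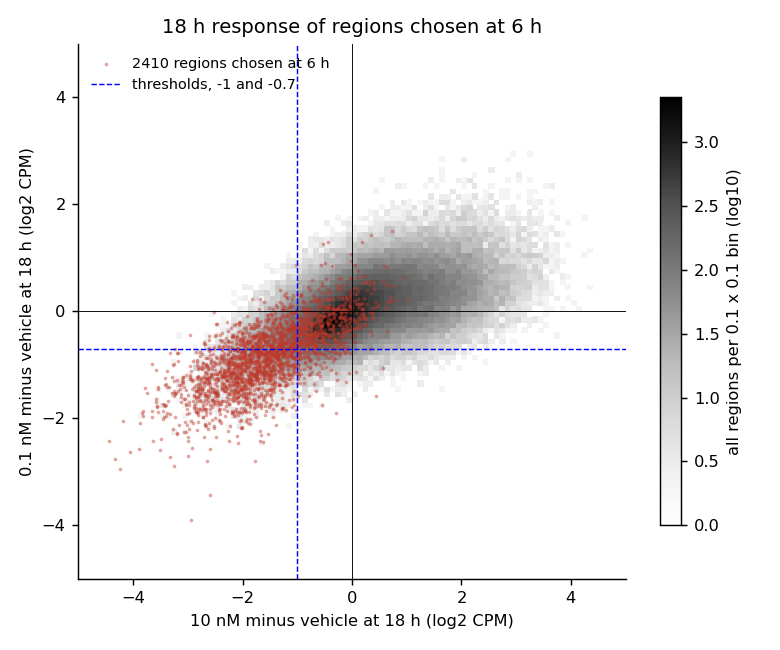
Difference of each region from vehicle at 18 h, with 10 nM on the horizontal and 0.1 nM on the vertical axis (both in log2 CPM), for all regions (grey, number per bin on a log10 scale) and for the 2410 regions chosen from the 6 h libraries alone (red). The red points lie mostly in the lower left, with medians of -1.54 and -0.80, and those below both dashed thresholds are the 1287.

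The reverse choice gave a like picture. Of the 3178 regions that met the thresholds at 18 h alone, 40.5% also met them at 6 h, compared with 1.82% of all regions. Their median difference at 6 h was -1.27 for 10 nM and -0.68 for 0.1 nM, beside 0.03 and -0.009 over all regions. At 6 h edgeR called 2137 of 3176 lower with 10 nM (67.3%, beside 8.42% of all tested regions) and 267 with 0.1 nM (8.41%, beside 0.241%). The shares for the 2 doses were not tested against each other.

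The rule was also applied without one replicate number, and the regions it gave were measured in the libraries of that number. Without replicate 1, 939 regions met the rule, and in replicate 1 all 4 differences were negative in 94.5% of them, compared with 17.5% of all regions. Without replicate 2 it was 92.8% of 1098 regions, compared with 24.2%. Without replicate 3 it was 76.3% of 1781 regions, compared with 11.5%. All 4 thresholds were met in the left-out libraries by 67.5% of the regions for replicate 1, 59.6% for replicate 2 and 16.6% for replicate 3, compared with 1.37%, 1.16% and 0.358% of all regions. Replicate 3 gave the smallest falls, with a median of -0.49 for 0.1 nM at 6 h, beside -1.25 in replicate 1 and -1.15 in replicate 2. The replicate 3 vehicle library at 6 h had the lowest level over the 1287 regions of the vehicle libraries at that time.

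The levels at 18 h were then compared with those at 6 h within each dose. The rule used no time contrast, though it did use these levels. With 10 nM, 34 of the 1287 were called lower at 18 h than at 6 h, where 1.13% of all tested regions were, and none was called higher, where 0.112% were. The 34 became 19 without 10 nM replicate 2 at 18 h and 21 without 10 nM replicate 2 at 6 h. Over all tested regions the 1501 called lower became 539 and 772 there. With 0.1 nM, 2 regions were called lower at 18 h, which were also the only 2 of all tested regions, 0.00151%. Both calls were lost when any of the 6 libraries of 0.1 nM was left out. With the replicate number as a block 13 of the 1287 were called lower, beside 76 of all tested regions. With vehicle none was called by edgeR, in these regions or in all, where 44 of the 1287 and 3796 of all tested regions had an unadjusted p under 0.05. DESeq2 also called none of the 1287 in vehicle cells.

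The median log2 fold change of 18 h against 6 h over the 1287 regions was -0.23 with 10 nM, -0.35 with 0.1 nM and -0.22 with vehicle, beside -0.02, 0.04 and 0.01 over all tested regions. It was negative in 64.7% of the 1287 with 10 nM, in 82.9% with 0.1 nM and in 79.5% with vehicle, beside 51.3%, 47.1% and 49.0% of all tested regions. In vehicle cells no single region passed the test, and the vehicle medians of the libraries overlapped between the times. For the change of the response with time, the edgeR interaction tests called none of the 1287 for 10 nM, for 0.1 nM or for the step between doses, with 88, 26 and 59 at an unadjusted p under 0.05, beside 7371, 3352 and 7608 of all 132304 tested regions. Over all tested regions these tests called 0.00151% lower for 10 nM, none for 0.1 nM and 0.0113% lower for the step between doses. DESeq2 called 5 of the 1287 lower for 10 nM, beside 234 of all tested regions. It called none of the 1287 for 0.1 nM or for the step between doses, beside 0 and 367 of all tested regions called lower. Over the 1287, the response differed between 18 h and 6 h by a median of -0.02 for 10 nM and -0.14 for 0.1 nM.

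Both regions called with 0.1 nM lie on chromosome 12. The region from 40731769 to 40732609 had 2.67, 3.39 and 2.94 CPM at 0.1 nM and 18 h, against 7.02, 7.26 and 9.84 CPM at 6 h. With 10 nM it had 1.42, 1.70 and 1.66 CPM at 18 h, against 5.20, 5.80 and 6.44 CPM at 6 h. Vehicle libraries had 13.7, 13.3 and 13.3 CPM at 18 h, against 17.7, 15.3 and 14.4 CPM at 6 h. The times did not overlap at any dose. The change of its 10 nM response with time was -1.63 (SE 0.275, edgeR adjusted p = 0.0829), which did not pass the test. Nor did the change of its 0.1 nM response, -1.19 (SE 0.265), so its 0.1 nM fall was not separated from that of vehicle. The region was lower at 18 h than at 6 h by 2.70-fold with 0.1 nM (log2 fold change -1.43, SE 0.195, edgeR adjusted p = 0.0351) and by 3.65-fold with 10 nM (-1.87, SE 0.209, adjusted p = 0.000253).

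The region from 45989950 to 45990869 had 4.76, 4.92 and 5.70 CPM at 0.1 nM and 18 h, against 12.7, 12.9 and 13.9 CPM at 6 h (log2 fold change -1.37, SE 0.19, edgeR adjusted p = 0.0351). With 10 nM it was already low at 6 h, with 2.17, 2.91 and 3.24 CPM at 18 h, against 3.31, 3.81 and 4.45 CPM at 6 h. Vehicle libraries had 20, 18.8 and 20.6 CPM at 18 h, against 30.3, 28.8 and 23.9 CPM at 6 h. The step between doses was narrower at 18 h than at 6 h by 0.88 (SE 0.277, adjusted p = 0.447), which did not pass the test. Nor did the change of its 0.1 nM response with time, -0.876 (SE 0.259).

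With 10 nM the falls between the times were deepest in proportion to their error in the chromosome 12 region starting at 40731769, above, in another on chromosome 12 (88189236 to 88190095) and in one on chromosome 18 (60924433 to 60925100). The second had 2.60, 2.10 and 2.59 CPM at 10 nM and 18 h, against 8.89, 7.34 and 8.81 CPM at 6 h, and was 3.36-fold lower (log2 fold change -1.75, SE 0.213, edgeR adjusted p = 0.000515). The region on chromosome 18 had 1.72, 1.94 and 1.29 CPM at 10 nM and 18 h, against 4.59, 4.85 and 4.69 CPM at 6 h. It was 2.78-fold lower (-1.47, SE 0.216, adjusted p = 0.00145). At 6 h its 0.1 nM libraries, with 4.19, 4.14 and 4.61 CPM, overlapped those of 10 nM, and at 18 h, with 3.59, 3.60 and 2.56 CPM, they lay above them. A chromosome 6 region (72074575 to 72075941) had 6.73, 2.26 and 5.55 CPM at 10 nM and 18 h, against 19.0, 18.6 and 15.1 CPM at 6 h.

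Position, width and spacing were not written into the rule. Narrow regions tend to hold fewer counts, though, and the prior count shrinks their differences, so width was not independent of the choice. A prior count of 0.5 gave 1408 members and a prior count of 5 gave 1076. The median width of the 1287 regions was 549 bp, compared with 386 bp for all regions and 518 bp for the 3028 other regions with the 10 nM fall. Regions under 300 bp made up 18.6% of the 1287 and 36.6% of all regions. In vehicle cells their median level was 7.69 CPM per kb, compared with 5.67 for all regions and 8.98 for the 3028. The vehicle level is part of every difference the rule used, and a prior count of 2 shrinks the differences of regions with few counts, so this level was not independent of the choice. Of the 1287, 4 were among the 5000 regions with the highest vehicle CPM per kb (0.311%), as were 65 of the 3028 (2.15%). Those 5000 make up 3.77% of all regions. Split into 10 equal bins by vehicle CPM per kb, the share of regions that were among the 1287 was 0.00754% in the lowest bin, peaked at 1.99% in the seventh and was 0.332% in the highest. Both the most open and the least open sites of the list were thus seldom members.

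**Figure D4:**
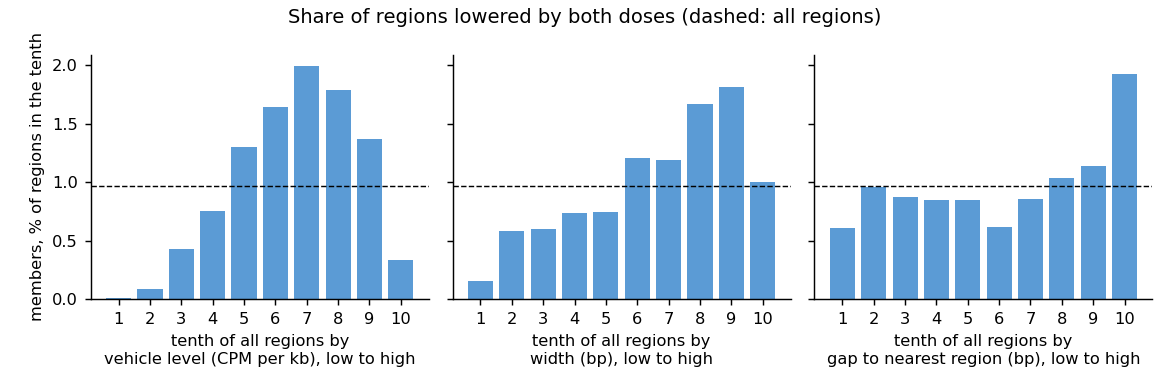
Percent of regions that are among the 1287 in each of 10 equal bins of all 132604 regions, ordered from low to high by vehicle level in CPM per kb (left), width in bp (middle) and gap to the nearest region in bp (right). The dashed line is the share over all regions, 0.971%. The share peaks at 1.99% in the seventh bin of vehicle level, at 1.81% in the ninth bin of width and at 1.92% in the widest gaps.

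The 1287 regions stood in sparser surroundings. The median gap to the nearest region of the list was 7442 bp, compared with 5468 bp for all regions and 5358 bp for the 3028. The nearest region was over 20 kb away for 22.3% of the 1287, for 11.8% of all regions and for 14.7% of the 3028. A median of 4 other regions lay within 50 kb, compared with 7 for all regions and 6 for the 3028. Another of the 1287 lay within 50 kb of 302 of them (23.5%), while 4.13% of all regions and 11.3% of the 3028 had 1 of the 1287 that near.

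The share of members varied among chromosomes 1 to 22 and X. They made up 0.971% of all regions, 1.93% of those on chromosome 4, 1.68% on chromosome 13, 1.49% on chromosome X and 1.46% on chromosome 18. At the low end were 0.330% on chromosome 16, 0.244% on chromosome 17, 0.181% on chromosome 19 and 0.170% on chromosome 22. These 4 chromosomes with high shares also had wide gaps between regions, with a median of 7636 bp on chromosome 4, 9406 bp on 13, 9615 bp on X and 7750 bp on 18, compared with 4642 bp on 17, 4784 bp on 19 and 4909 bp on 22. Chromosome 21 did not follow this, with a share of 1.36% and a median gap of 4790 bp. Falls at 10 nM, members included, were also more frequent on chromosomes 4, 13 and X than on 17, 19 and 22. On chromosome 4, 5.35% of regions fell by 1 or more at both times, with 5.50% on 13 and 5.30% on X. The shares were 1.60% on 17, 1.09% on 19 and 0.937% on 22. Of every 100 such falls, those that were also members numbered 39.4 on chromosome 21 and 36.0 on chromosome 4, compared with 15.3 on 17 and 16.7 on 19. The number of copies of each chromosome in T47D cells was not analysed here.

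**Figure D5:**
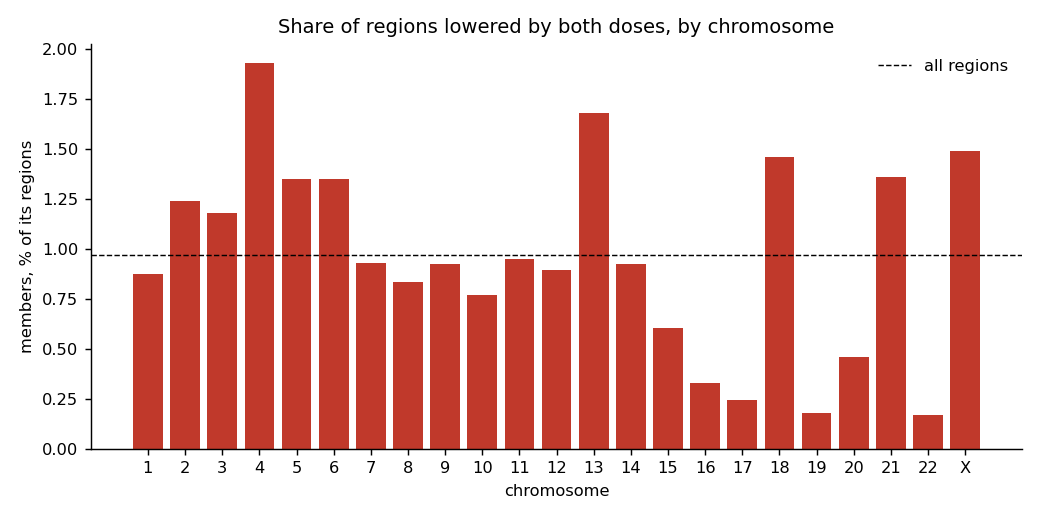
Percent of the regions of each of chromosomes 1 to 22 and X that are among the 1287, with the share over all regions, 0.971%, as a dashed line. Chromosome 4 stands highest at 1.93%, and chromosomes 19 and 22 stand lowest at 0.181% and 0.170%.

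Members that followed each other within 100 kb were joined into clusters. There were 857 single members and 180 clusters of 2 or more, which held 430 members. The largest held 8 members on chromosome 14, between 44037268 and 44263008, among 14 regions of the list in that span. Their median differences were -1.89 for 10 nM and -1.67 for 0.1 nM at 18 h, and -2.50 for 10 nM and -1.58 for 0.1 nM at 6 h. The 6 other regions in the span had a median of -0.48 for 10 nM at 18 h and -0.93 at 6 h. The strongest member of the cluster, from 44118659 to 44119465, had 10.9, 9.20 and 10.0 CPM with vehicle at 18 h, 2.89, 3.26 and 3.04 CPM at 0.1 nM, and 0.644, 1.29 and 2.68 CPM at 10 nM. Its 10 nM libraries lay below its 0.1 nM libraries, and both below vehicle. Another member there, from 44247762 to 44248709, had 21.7, 14.0 and 16.1 CPM with vehicle at 18 h, 6.70, 4.64 and 4.84 CPM at 0.1 nM, and 8.58, 3.23 and 3.14 CPM at 10 nM, so its doses overlapped.

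The next clusters held 5 members each. On chromosome 21, between 41696319 and 41839353, they were 5 of 16 regions and included a wide region of 2097 bp from 41757453 to 41759550. That region had 51.0, 43.5 and 32.9 CPM with vehicle at 18 h, 28.8, 27.8 and 16.2 CPM at 0.1 nM, and 14.8, 8.65 and 9.52 CPM at 10 nM, so its dose groups did not overlap. On chromosome 3, between 169117949 and 169375690, they were 5 of 30, and the 25 others had a median of -0.15 for 10 nM at 18 h and -0.40 at 6 h. A member of that cluster from 169375093 to 169375690 showed no step between the doses at 6 h, with 21.6, 17.3 and 14.1 CPM with vehicle, 9.88, 7.68 and 8.30 CPM at 0.1 nM, and 8.56, 8.48 and 8.39 CPM at 10 nM. Its difference of 10 nM against 0.1 nM at 6 h was -0.05 (SE 0.194, adjusted p = 0.888) and was 0.03 with library totals in place of TMM scaling. On chromosome 12, between 87554624 and 87835957, they were 5 of 9.

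The neighbours of members were described next, as regions that were not members but lay near one. Within 5 kb of a member lay 489 such regions, whose median difference for 10 nM was -0.29 at 18 h and -0.28 at 6 h, beside -0.03 and 0.04 over all 131317 non-members. In 20.9% of them it was -1 or less at 18 h and in 20% at 6 h, compared with 5.10% and 4.26% of all non-members. Widening the window to 50 kb took in 5169 regions, with 11.9% at 18 h and 10.9% at 6 h, and to 100 kb 9495 regions, with 10.2% and 8.99%. Differences of 1 or more at 10 nM were found beside members too, in 10.6% of the 489 at 18 h and in 14.1% at 6 h, compared with 15.7% and 21.4% of all non-members. Regions with a higher level at 10 nM thus also lay beside members. These shares are a description, with no test of their difference.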

How the data were processed

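Counts of reads per region were deposited by the authors as 1 table of raw, unnormalized whole numbers for all 18 libraries. BWA, MACS2 and the build hg19 are named per the submitters' processing notes. Their versions and settings, read filters, any shift for the Tn5 insertion and the making of the region list were not given in the sources used. Coordinates are those of the table, and whether the start counts from 0 or 1 is not stated. Genes, motifs and region sequences were not analysed here, as no hg19 genome or annotation was at hand.

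The counts were analysed with edgeR 4.0.16 in R 4.3.3. Membership used TMM factors over all regions and log2 CPM with a prior count of 2. The main test was glmQLFTest in 1 fit of 6 group means without a replicate block, after filterByExpr (minimum count 10, minimum total 15) kept 132304 regions; p-values were adjusted over all of them in each of 12 comparisons. A standard error is the log2 fold change divided by the square root of F. The script was tested on simulated data. Alternatives included DESeq2 1.42.0. CPM per kb is CPM divided by width. Totals of 8756311 to 39984217 counts per library limit precision at low levels.

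The members, and the regions and lists described, were chosen with earlier results of these data known. Named regions were taken by rule from members with a mean of at least 1 log2 CPM: the 10 deepest without overlap between the libraries of a dose and vehicle, the 5 highest with vehicle (at any mean), the 5 at each end of the dose difference, those nearest the thresholds, members of the 3 largest clusters, those called between times with the smallest p, and the widest and narrowest.

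Replicate numbers were taken to pair samples where same-numbered libraries of both groups deviated together over all regions, with every correlation over 0.1. This held for 10 nM against 0.1 nM at 18 h (0.598, 0.192 and 0.454) and for vehicle at 18 h against 6 h (0.315, 0.120 and 0.444), and for none of the other 7 comparisons of 2 groups; it comes from the data and not from a label. Over the 1287 regions alone, every correlation was also over 0.1 for 0.1 nM against vehicle at 18 h (0.216, 0.147 and 0.153) and 6 h (0.242, 0.223 and 0.328), 10 nM against vehicle at 6 h (0.108, 0.156 and 0.195) and 0.1 nM at 18 h against 6 h (0.196, 0.130 and 0.146), but not for 10 nM against 0.1 nM at 18 h.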

Additional observations from a re-analysis of the deposited data

How the results depend on the processing

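Other settings changed how many regions met the rule or passed the test. The direction of the 1287 against vehicle was set by the choice, so its stability says nothing about robustness. Thresholds of -1.2 and -0.9 kept 668 of the 1287, and thresholds of -0.8 and -0.5 took in 2433. With other scaling, prior counts and filters there were 1076 to 1408, and 1047 to 1759 when 1 library was left out. The 0.1 nM count of 255 at 6 h was 80 at an adjusted p under 0.01, 494 with a replicate block, 454 with DESeq2, 534 with a covariate (the percent of counts that fell in the 5000 strongest regions), and 57 to 341 without 1 library. Over all tested regions the 319 became 91, 747, 671 and 1075 in these settings, and 70 to 464 without 1 library. The 480 at 18 h was 221 at an adjusted p under 0.01, 674 with the replicate block, 595 with DESeq2, 670 with the covariate and 208 to 401 without 1 library. Over all tested regions the 923 became 349, 1732, 1204 and 1692, and 335 to 682 without 1 library. The count lower with 10 nM than with 0.1 nM was 154 at 18 h and 307 at 6 h at an adjusted p under 0.01, beside 2695 and 3341 of all tested regions. At 18 h it was 90 with the groups compared alone, 427 with the replicate block and 185 to 332 without 1 library. Over all tested regions it was 1677, 7933 and 2953 to 6007. The count higher was 3 at 18 h and 3 at 6 h with the covariate, beside 13213 and 22408 of all tested regions. At 6 h it was 2 with the replicate block, DESeq2, library totals or the groups alone, and 1 to 3 without 1 library. With every library in, that count over all tested regions was 23545, 22223, 19685 and 23270, in the same order. The 34 lower at 18 h than at 6 h with 10 nM became 15, 87, 114, 5 and 76 at an adjusted p under 0.01, with the replicate block, with the covariate, with the groups alone and with DESeq2, and 19 to 47 without 1 library. Over all tested regions the 1501 became 499, 3297, 5877, 345 and 2886 in that order, and 539 to 2707 without 1 library. The 2 with 0.1 nM became 0 at an adjusted p under 0.01, with the groups alone or without any 1 library, 1 with library totals, and 13 with the replicate block, the covariate or DESeq2. Those last 3 settings called 76, 83 and 81 of all tested regions lower. The change of the 10 nM response with time was called in 5 with the replicate block or DESeq2 and in 17 with the covariate, which also called 2 for the step between doses. All were lower, beside 179, 234, 580 and 620 of all tested regions, in that order. The cause of these shifts was not tested.

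Library totals in place of TMM put the median of all tested regions at 0.17 log2 for 10 nM against vehicle at 18 h, beside 0.01. They called 4 of all tested regions lower and 7 higher at 18 h than at 6 h with 0.1 nM, beside 2 and 0. The replicate block moved no count of calls by more than 1.5 times in the comparisons whose libraries deviated together by number over all regions. Judged over the 1287 alone, the numbers also paired 0.1 nM and vehicle at 6 h and 0.1 nM at 18 h and 6 h, where the block moved 255 to 494 and 2 to 13. Over all tested regions it moved these counts from 319 to 747 and from 2 to 76.

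Some of the named regions were picked for the size of their dose difference. The difference of 10 nM against 0.1 nM changed sign in 17 of 1260 refits of named regions, none of them called. With the covariate it became 0.004 at 18 h and 0.111 at 6 h for chromosome 7 from 27386330, 0.309 and 0.401 for chromosome 14 from 44247762, and, at 6 h, 0.348 for chromosome 10 from 90234090 and 0.257 for chromosome 3 from 169375093. The last was 0.032 with library totals. Without 1 library, the range at 6 h was -0.175 to 0.337 for chromosome 13 from 100426759 and -0.102 to 0.088 for chromosome 3. At 18 h it was -0.084 to 0.438 for chromosome 9 from 35935304, -0.020 to 0.746 for chromosome 10 and -0.757 to 0.165 for chromosome 14, whose lowest value is without 10 nM replicate 1.

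Low counts limit what remained at 10 nM, where up to 42 of the 1287 regions had 0 counts in a library.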
